A study of Mus musculus with 14 samples.

Results

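Autophagy and the lysosome were followed through 31 mouse genes in left ventricles with and without Hspb8, before and after pressure overload. The genes were chosen by name for their place in the pathway, with earlier results of these data known. They fall into 21 genes of the autophagy machinery (cargo receptors, the ATG8 family, initiation, conjugation and the transcription factor Tfeb) and 10 genes of lysosomal membrane proteins and hydrolases. A probe set, the group of short probes that reports 1 transcript, was used where the array's annotation gave it a single gene symbol. On that basis 30 of the 31 genes were measured, through 76 probe sets, of which 64 passed a filter on low values, and the whole array gave 12261 genes. Optn, a cargo receptor of damaged mitochondria, was not analysed here.

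The study profiled left ventricles of male C57BL/6 mice on Affymetrix whole-genome mouse arrays, to ask how deletion of Hsp22 (H11 kinase, gene symbol Hspb8) changes gene expression in the basal heart and under pressure load. There were 4 groups. Wild-type and Hsp22 knockout mice in the basal state gave 3 arrays each, and wild-type and knockout mice 3 days after transverse aortic constriction (TAC), a surgical narrowing of the aorta that loads the left ventricle, gave 4 arrays each. The basal groups had no pressure overload and the labels name no sham operation, so the contrast of TAC with basal holds the surgery together with the load. The labels do not say how the knockout was made. They do not say either that each array is a separate animal, so each p measures the spread between these arrays, which may be in part technical. The raw file names given in the sample descriptions carry what reads as a date, which is one for all TAC arrays and differs from those of the basal arrays, so that date and surgery cannot be told apart. Basal knockout array 3 carries another date than the other basal arrays.

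In autophagy, a double membrane closes around cytoplasm or organelles and the resulting vesicle fuses with a lysosome, whose hydrolases digest the content. The ULK1 kinase and the Beclin 1 lipid kinase complex start the membrane, ATG9 vesicles feed it, 2 conjugation systems attach ATG8 proteins (LC3 and GABARAP) to it, and receptors such as SQSTM1 tie cargo to ATG8. In heart muscle the route is known for clearing damaged mitochondria and sarcomere proteins, and inherited loss of LAMP2 (Danon disease) or of acid alpha-glucosidase, GAA (Pompe disease), leaves vacuoles or glycogen-filled lysosomes in cardiac muscle. HSPB8 works with the co-chaperone BAG3 in chaperone-assisted autophagy of damaged muscle proteins. TFEB and its relatives are transcription factors of lysosomal genes that bind the E-box CACGTG. The arrays measure RNA; autophagic flux was not measured.

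Promoter sequences are shown because the E-box, the one motif searched, was more frequent in the lysosomal members than in promoters at large. RefSeq promoter windows (GRCm38.p6, 250 bases before to 50 bases after a start) were at hand for 25 of the 31 genes. Map1lc3a, Becn1, Atg12, Atg16l1, Npc1 and Ctsb had no entry. The motif CACGTG reads the same on both strands. It was present in 9 of the 25 genes, or 36%, against 8.09% of all 27025 genes with a window. The share was 6 of 8 lysosomal members, or 75% (Lamp1, Mcoln1, Ctsa, Ctsd, Ctsl and Gaa). It was 3 of 17 machinery members, or 17.6% (Atg3, Atg5 and Atg7). The share was lower in lysosomal genes outside the members. It was 7 of 26 other hydrolases and cofactors (26.9%), 2 of 9 other membrane proteins (22.2%) and 4 of 11 vacuolar ATPase genes (36.4%). Other autophagy genes outside the members had it in 2 of 26, or 7.69%. With 1 flanking base added on either side (TCACGTG or CACGTGA, which overlap the E-box), the counts were 7 of 25 members, or 28%, and 4.29% of all genes. The 250 bases before the start are given for 3 of the lysosomal genes with more than 1 E-box (Lamp1, Mcoln1 and Ctsd) and for the only 2 lysosomal members that passed the test after TAC, Gaa with 1 E-box and Lamp2 with none in its window. Sequences run 5′ to 3′ on the gene's strand, with each E-box in capitals.
Lamp1 (chr8:13158911-13159160, plus strand): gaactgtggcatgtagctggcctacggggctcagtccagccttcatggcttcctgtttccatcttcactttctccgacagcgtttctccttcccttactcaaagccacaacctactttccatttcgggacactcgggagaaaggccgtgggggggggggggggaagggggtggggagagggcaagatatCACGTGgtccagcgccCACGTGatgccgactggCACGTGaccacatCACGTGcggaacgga
Mcoln1 (chr8:3500269-3500518, plus strand): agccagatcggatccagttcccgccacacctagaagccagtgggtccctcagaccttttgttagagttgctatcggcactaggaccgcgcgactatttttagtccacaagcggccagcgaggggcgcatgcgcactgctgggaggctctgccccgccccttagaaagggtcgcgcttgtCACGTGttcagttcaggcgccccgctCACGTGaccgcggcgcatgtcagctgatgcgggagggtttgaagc
Ctsd (chr7:142387828-142388077, minus strand): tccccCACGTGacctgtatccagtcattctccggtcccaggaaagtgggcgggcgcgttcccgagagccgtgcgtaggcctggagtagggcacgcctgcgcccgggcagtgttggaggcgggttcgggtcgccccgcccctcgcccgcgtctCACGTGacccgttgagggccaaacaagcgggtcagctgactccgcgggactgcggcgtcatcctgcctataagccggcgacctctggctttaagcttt
Gaa (chr11:119267713-119267962, plus strand): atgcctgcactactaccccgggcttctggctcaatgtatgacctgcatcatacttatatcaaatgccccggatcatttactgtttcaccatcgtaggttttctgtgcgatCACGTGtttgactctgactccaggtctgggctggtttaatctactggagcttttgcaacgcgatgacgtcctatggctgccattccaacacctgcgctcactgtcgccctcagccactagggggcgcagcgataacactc
Lamp2 (chrX:38456461-38456710, minus strand): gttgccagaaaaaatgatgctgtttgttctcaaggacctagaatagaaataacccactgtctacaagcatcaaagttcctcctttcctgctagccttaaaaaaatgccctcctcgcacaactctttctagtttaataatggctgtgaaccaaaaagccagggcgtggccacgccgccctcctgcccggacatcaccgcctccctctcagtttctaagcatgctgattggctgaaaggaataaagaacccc
The Lamp1 E-boxes began 61, 45, 28 and 15 bases before the start, those of Mcoln1 71 and 45 bases before it, those of Ctsd 245 and 98 bases before it, and that of Gaa 140 bases before it. A match to these letters is a description of the window and not of a bound site.

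All values below are the deposited log2 values, and a difference of 1 is a doubling. Where a gene had several kept probe sets, the one of highest mean stands for it. Differences come from a limma fit over all 14 arrays with a Benjamini-Hochberg adjusted p over the 12261 genes, and a gene is called when that p is under 0.05. The p of any further probe set of a gene was adjusted over all 21229 kept probe sets. The knockout label was checked first on Hspb8. Probe set 1417013_at lay between 11.09 and 12.29 in the wild-type arrays and between 4.27 and 5.13 in the knockout arrays, and 1417014_at between 10.26 and 11.64 against 5.10 and 5.92. The third Hspb8 probe set, 1456434_x_at, had the highest mean and so stands for the gene. It was lower in basal knockout hearts by 1.08 with an adjusted p of 0.172, and was not called. Of all arrays, TAC wild-type array 3 stood most apart: correlations between arrays of a group were 0.918 to 0.986 in the TAC wild-type group, 0.970 to 0.991 in the TAC knockout group and 0.983 to 0.988 in the basal groups. Defining markers of heart muscle were high in each array, with a mean of 8 cardiomyocyte markers between 13.70 and 14.17.

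Between TAC and basal hearts, genes of several steps of the pathway were called, in both directions and in both genotypes. In wild-type hearts 12 of 30 genes were called, 4 higher (Becn1, Atg3, Atg5 and Lamp2) and 8 lower (Sqstm1, Gabarapl1, Ulk1, Atg9a, Wipi2, Atg7, Tfeb and Gaa). That is 40% of the members against 50.7% of all genes called, 26.9% of all genes being higher and 23.8% lower. In knockout hearts 11 of 30 were called, 4 higher (Becn1, Atg3, Gabarapl2 and Lamp2) and 7 lower (Sqstm1, Gabarapl1, Ulk1, Atg9a, Wipi2, Tfeb and Gaa), or 36.7% against 44.5% of all genes, 22.7% higher and 21.8% lower. The share of members called was thus below that of all genes in both genotypes. Median log2 differences of the members were -0.03 in wild type and -0.07 in knockout, beside 0.02 and -0.02 over all genes. The knockout count fell to 6 without basal knockout array 1, and to 7 without basal knockout array 3 or without TAC knockout array 2. When the deposited values were quantile normalized, the wild-type calls were 3 higher and 9 lower and the knockout calls 1 higher and 9 lower, with the median of all genes moved from 0.02 to -0.10 in wild type.

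**Figure D1:**
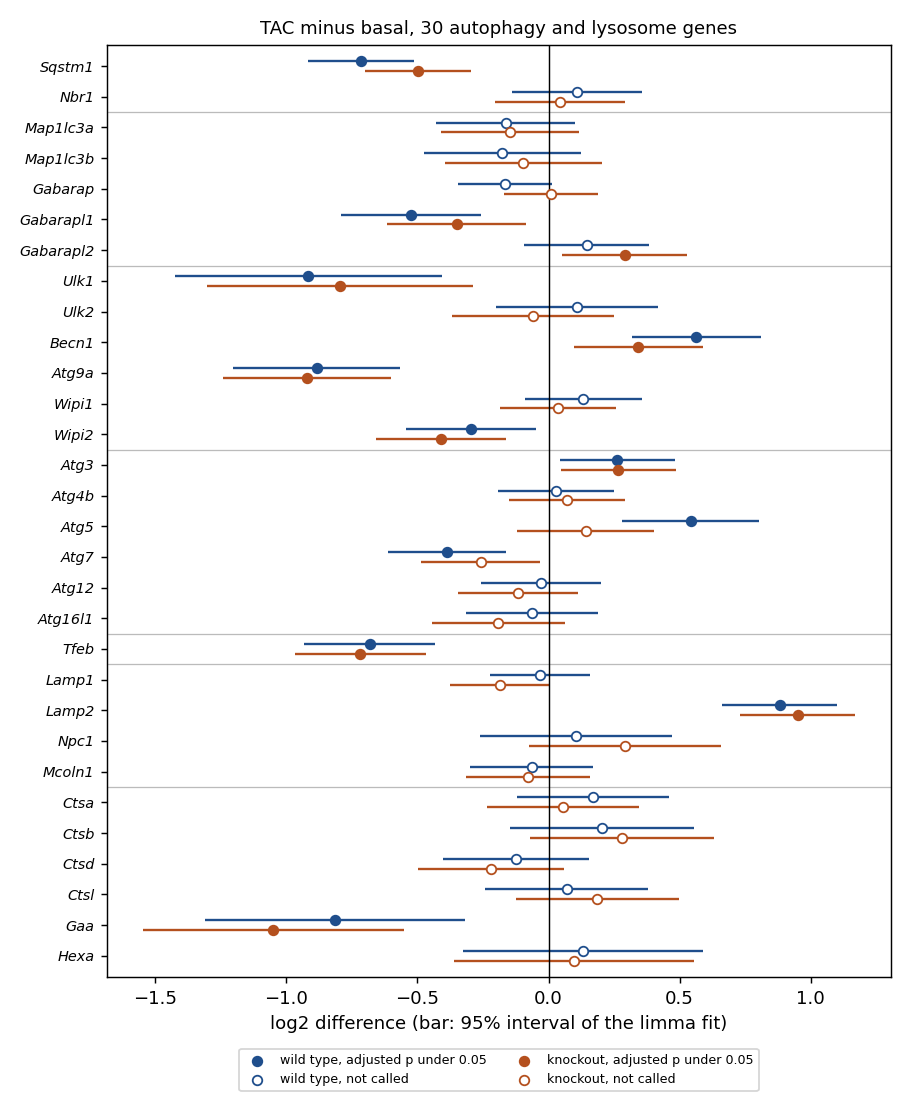
Log2 difference of TAC minus basal (horizontal axis) for the 30 measured genes, ordered by role from cargo receptors at the top to hydrolases at the bottom, in wild-type (blue) and knockout (orange) hearts; points are estimates, bars 95% intervals of the limma fit, filled points an adjusted p under 0.05. Lamp2 lies farthest to the right in both genotypes (0.88 and 0.95) and Ulk1, Atg9a and Gaa farthest to the left (-0.80 to -1.05), while Atg5 is filled in wild type alone.

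Most members differed in the same direction after TAC in wild-type and knockout hearts. The comparisons share no arrays, but the fit gives both the same spread for a gene, so their calls are not independent. In all, 28 of 30 members, or 93.3%, had the same sign in both, as had 86.6% of all genes. The 10 genes called in both with the same direction were 83.3% of the wild-type calls and 90.9% of the knockout calls, beside 67.6% and 77.1% for all genes. Both comparisons carry the same difference in file dates, and no test was made of the members against all genes. They were 3 higher genes (Becn1, Atg3 and Lamp2) and 7 lower genes (Sqstm1, Gabarapl1, Ulk1, Atg9a, Wipi2, Tfeb and Gaa), and 17 members were called in neither genotype. Atg5 and Atg7 were called in wild type alone and Gabarapl2 in knockout alone. The difference between the genotypes' TAC effects itself missed the threshold for each of these 3, with adjusted p of 0.612, 0.901 and 0.892.

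Markers of other cell types moved in the same contrast. Macrophage markers were called higher for 13 of 15 genes in wild type and 12 of 15 in knockout, beside 26.9% and 22.7% of all genes. The mean level of the 15 macrophage markers per array was 7.87 to 8.22 in basal wild type, 8.33 to 8.40 in basal knockout, 8.63 to 10.52 after TAC in wild type and 9.55 to 9.80 after TAC in knockout. Of 5 fibroblast markers, 4 rose and 1 fell in wild type, and 4 rose in knockout. None of 8 cardiomyocyte markers was called in either genotype by limma, and none had an unadjusted p under 0.05. All 3 atrial muscle markers (Sln, Myl7 and Myl4) were lower after TAC, with median log2 differences of -3.03 in wild type, where no groups overlapped and Sln alone was called, and -2.38 in knockout, where the groups overlapped and none was called. Their mean ranged from 5.18 to 13.12 over the arrays. The part of these cell markers in the results below was not tested, and in whole tissue fewer cells of a type and less RNA per cell cannot be told apart.

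The cargo receptor Sqstm1 (p62), which links ubiquitinated protein to ATG8, was lower after TAC in every array. Basal wild-type arrays read 12.51, 12.48 and 12.42, and TAC wild-type arrays 11.85, 11.76, 11.85 and 11.56. Basal knockout arrays read 12.33, 12.45 and 12.40, and TAC knockout arrays 11.84, 12.00, 11.85 and 11.89. Neither pair of groups overlapped, as was the case for 49.9% of all genes in wild type and 54.3% in knockout. Values after ± here and below are SE of the limma fit, which takes a gene's spread from the arrays of all groups together. Sqstm1 fell by 0.72 ± 0.093 in wild type (4 TAC against 3 basal arrays), a 1.64-fold drop with an adjusted p of 0.000142. In knockout Sqstm1 fell by 0.50 ± 0.093 with an adjusted p of 0.00148. Its relative Nbr1, also a receptor of ubiquitinated cargo, lay between 10.29 and 10.68 over all arrays on its standing probe set and was not called. Its other probe set, 1451897_a_at, was called lower in knockout (-0.51, adjusted p 0.00271 over all kept probe sets) and missed the threshold in wild type (-0.27, adjusted p 0.0508).

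In the ATG8 family, the small proteins that are attached to the autophagosome membrane, Gabarapl1 alone was called lower in both genotypes on its standing probe set. A further probe set of Map1lc3a, given below, was also called lower in both. On the standing probe set of Gabarapl1, basal wild-type arrays read 11.14, 11.59 and 11.13, against 10.83, 10.70, 10.87 and 10.65 after TAC. Knockout arrays read 10.91, 11.07 and 10.87 in the basal state and 10.73, 10.45, 10.61 and 10.61 after TAC. The groups were apart in each genotype, although the knockout gap was only that between 10.87 and 10.73. Gabarapl1 fell by 0.52 ± 0.12 in wild type (adjusted p 0.00404) and by 0.35 ± 0.12 in knockout (adjusted p 0.0345). The second Gabarapl1 probe set, 1416418_at, differed by -0.12 in wild type and 0.02 in knockout and was not called. The knockout call was also lost without any 1 of 6 arrays (basal knockout 1, 2 or 3, or TAC knockout 2, 3 or 4), with adjusted p from 0.0528 to 0.124.

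Gabarapl2 (GATE-16) was called higher in knockout alone. Knockout arrays read 10.99, 10.97 and 10.82 in the basal state and 11.17, 11.23, 11.07 and 11.40 after TAC. These groups did not overlap, whereas the wild-type arrays did, at 11.12, 10.76 and 10.92 against 10.99, 11.02, 11.12 and 11.19. The rise was 0.29 ± 0.11 in knockout with an adjusted p of 0.047, beside 0.15 ± 0.11 and 0.278 in wild type. Leaving out any 1 of 9 arrays (basal wild type 3, basal knockout 1, 2 or 3, TAC wild type 2 or 4, TAC knockout 1, 2 or 4) put the knockout p between 0.053 and 0.157. The knockout call was also lost under quantile normalization (0.18, adjusted p 0.144) and with array weights (0.20, adjusted p 0.067). A second probe set, 1441376_at, was called higher in knockout (0.49, adjusted p 0.0446) and not in wild type (0.40, adjusted p 0.0861).

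The LC3 genes gave different answers by probe set. Map1lc3a, on 1447883_x_at, the probe set with the highest mean, lay between 11.97 and 12.60 over all arrays and was not called (-0.16 in wild type, -0.15 in knockout). On 1451290_at, the basal arrays read 12.77, 12.58 and 12.66 in wild type and 12.61, 12.60 and 12.57 in knockout. After TAC they read 12.10, 11.95, 10.98 and 11.61 in wild type and 11.67, 11.61, 11.65 and 11.46 in knockout. No TAC array of 1451290_at reached its lowest basal array, and TAC wild-type array 3 was the lowest of all. The drop was 1.01 ± 0.20 in wild type with an adjusted p of 0.0013 and 0.996 ± 0.20 in knockout with 0.00189, both adjusted over all 21229 kept probe sets.

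Map1lc3b estimates differed by probe set in both genotypes, from -0.67 to -0.176 in wild type and from -0.645 to -0.096 in knockout. Its standing probe set, 1415930_a_at, lay between 11.78 and 12.37 and was not called. On 1415929_at, basal arrays read 11.71, 11.69 and 11.67 in wild type and 11.57, 11.71 and 11.64 in knockout, and TAC arrays 11.65, 11.34, 10.53 and 10.56 in wild type and 11.48, 10.99, 11.04 and 10.47 in knockout. The spread after TAC was wide, from an array near the basal level to arrays more than 1 log2 unit below it. The difference was -0.67 in wild type with an adjusted p of 0.0466, and -0.65 in knockout with 0.0595, so that no Map1lc3b probe set was called in knockout. The third, 1415928_a_at, differed by -0.29 and -0.38 without a call. Gabarap, the founding member of its subfamily, lay between 11.74 and 12.01 over all arrays and was not called in either genotype, although its wild-type groups were apart (11.91 to 12.01 against 11.74 to 11.88). Its wild-type difference of -0.17 was called under quantile normalization (-0.30, adjusted p 0.00906) and with array weights (-0.20, adjusted p 0.0375).

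**Figure D2:**
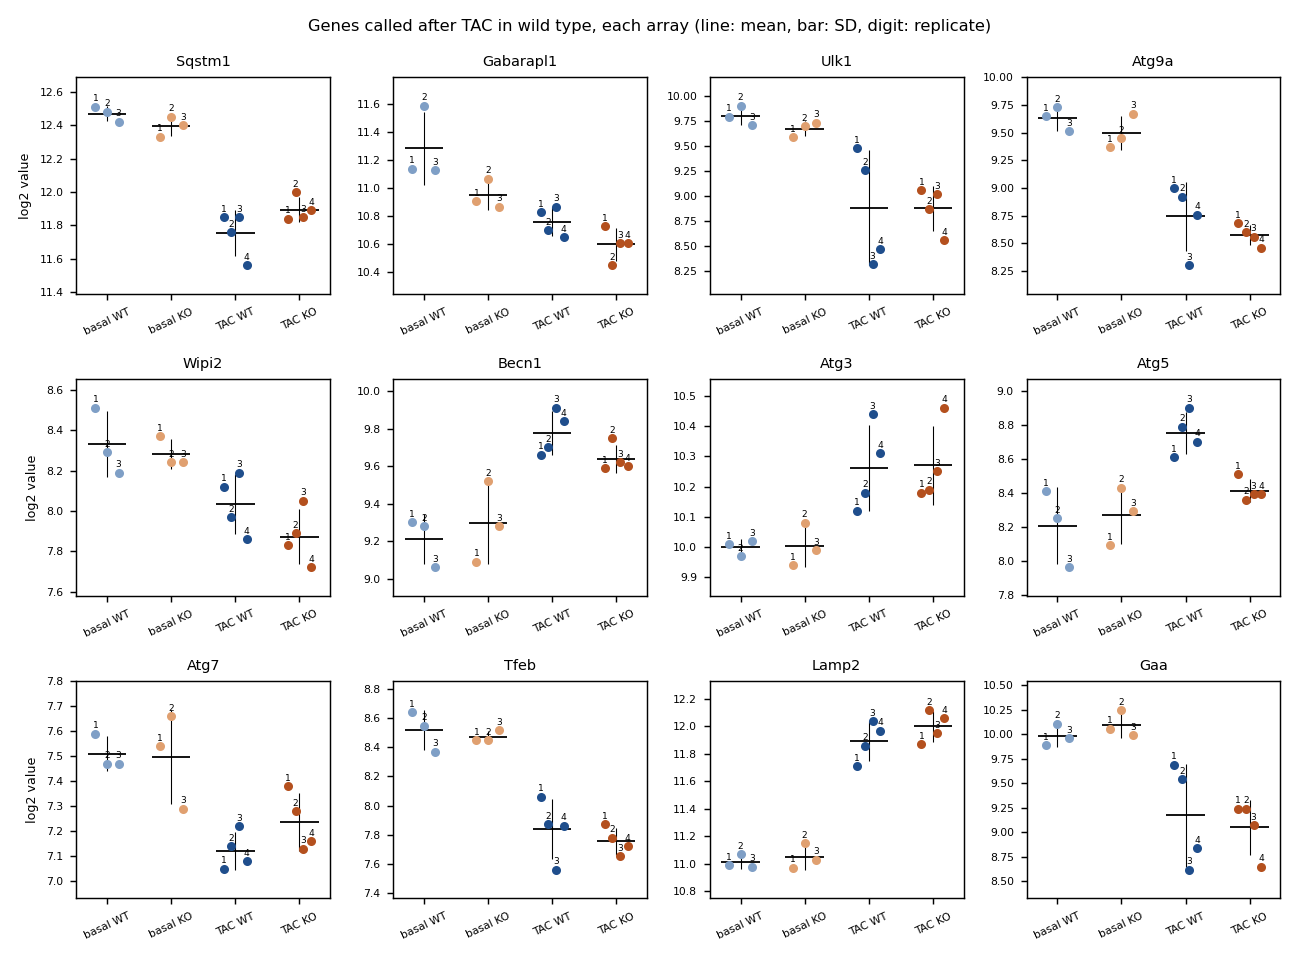
Deposited log2 value (vertical axis, a separate range in each panel) of each array for the 12 genes called in wild type, in basal wild type, basal knockout, TAC wild type and TAC knockout; digits are replicate numbers, lines means and bars SD. Lamp2 stands clear of basal in all 8 TAC arrays (11.71 and above, against at most 11.15), and Ulk1 and Gaa spread most within the TAC wild-type group, where arrays 3 and 4 are lowest.

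Among initiation genes, Ulk1, the kinase that starts autophagosome formation, fell in both genotypes. Basal arrays read 9.79, 9.90 and 9.71 in wild type and 9.59, 9.70 and 9.73 in knockout. TAC arrays read 9.48, 9.26, 8.32 and 8.47 in wild type and 9.06, 8.87, 9.02 and 8.56 in knockout. The groups were apart, with arrays 3 and 4 of the TAC wild-type group lowest. Ulk1 fell by 0.92 ± 0.24 in wild type (adjusted p 0.0067) and by 0.80 ± 0.24 in knockout (adjusted p 0.0164), and its other probe set was called lower in both. Without TAC wild-type array 3 the wild-type drop was 0.73 with an adjusted p of 0.0148, and without basal knockout array 3 the knockout call was lost at 0.0508. Ulk2, the second kinase of this kind, lay between 8.46 and 9.06 on its standing probe set and was not called. Of its other 2 probe sets, 1417846_at was called lower in knockout (-0.46, adjusted p 0.0223) and not in wild type (-0.20, adjusted p 0.278).

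Atg9a, the membrane-spanning protein whose vesicles supply the growing membrane, had an equally large drop with a narrower spread. Its basal arrays read 9.65, 9.73 and 9.51 in wild type and 9.37, 9.45 and 9.67 in knockout. After TAC it read 9.0, 8.92, 8.30 and 8.76 in wild type and 8.68, 8.60, 8.56 and 8.46 in knockout. Every TAC array was below every basal array. The drop was 0.89 ± 0.15 in wild type, 1.85-fold, with an adjusted p of 0.000611, and 0.92 ± 0.15 in knockout, 1.89-fold, with 0.000714.

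Becn1, which encodes the Beclin 1 subunit of the lipid kinase complex, moved the other way. Wild-type arrays rose from 9.30, 9.28 and 9.06 to 9.66, 9.70, 9.91 and 9.84, and knockout arrays from 9.09, 9.52 and 9.28 to 9.59, 9.75, 9.62 and 9.60. The groups were apart in both, with the highest basal knockout array close to the lowest TAC one. Becn1 rose by 0.56 ± 0.12 in wild type (adjusted p 0.0018) and by 0.34 ± 0.12 in knockout (adjusted p 0.0276). The rise rests on probe set 1455880_s_at: 1460320_at differed by 0.31 and 0.19 and 1437006_x_at by -0.22 and -0.16 in wild type and knockout, and neither was called. The knockout call was also lost without basal knockout array 1 or 3 or TAC knockout array 2, with adjusted p from 0.0678 to 0.135, and under quantile normalization (0.25, adjusted p 0.0937).

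The WIPI proteins read the lipid that the Beclin 1 complex makes and recruit the conjugation machinery. Wipi2 read 8.51, 8.29 and 8.19 in basal wild type and 8.12, 7.97, 8.19 and 7.86 after TAC, and 8.37, 8.24 and 8.24 in basal knockout and 7.83, 7.89, 8.05 and 7.72 after TAC. The wild-type groups touched at 8.19 and the knockout groups were apart. Wipi2 fell by 0.30 ± 0.12 in wild type (adjusted p 0.0464) and by 0.41 ± 0.12 in knockout (adjusted p 0.0125). The wild-type call was lost without any 1 of 9 arrays (basal wild type 1 or 2, basal knockout 1, 2 or 3, TAC wild type 2 or 4, TAC knockout 1 or 2; adjusted p 0.0535 to 0.19), and the knockout call without basal knockout array 1 at 0.0505. Median centring also ended the wild-type call (-0.22, adjusted p 0.13), and the other 2 Wipi2 probe sets were not called in either genotype. Wipi1 was not called on its standing probe set, and its 6 probe sets ranged from -0.35 to 0.37 in wild type, with 1 called higher, and from -0.80 to 0.05 in knockout, with 3 called lower.

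The conjugation genes did not move as a block. Atg5, part of the complex that hands ATG8 to the membrane lipid, read 8.41, 8.25 and 7.96 in basal wild type and 8.61, 8.79, 8.90 and 8.70 after TAC. In knockout it read 8.09, 8.43 and 8.29, then 8.51, 8.36, 8.39 and 8.39. The wild-type groups were apart and the knockout groups overlapped. Atg5 rose by 0.54 ± 0.12 in wild type with an adjusted p of 0.00303, and its knockout difference was 0.14 ± 0.12 with 0.349. Its other 2 probe sets differed by 0.35 and 0.25 in wild type and by 0.09 and -0.08 in knockout, and neither was called.

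Atg7, the enzyme that activates both ATG8 and ATG12, was lower in wild type. It read 7.59, 7.47 and 7.47 in basal wild type against 7.05, 7.14, 7.22 and 7.08 after TAC, and 7.54, 7.66 and 7.29 in basal knockout against 7.38, 7.28, 7.13 and 7.16. The wild-type groups were apart, while basal knockout array 3, at 7.29, lay below TAC knockout array 1. Atg7 fell by 0.39 ± 0.10 in wild type (adjusted p 0.00875), and the knockout difference of -0.26 ± 0.10 missed the threshold at 0.0592. That knockout difference was called without basal knockout array 3, without TAC knockout array 1, under quantile normalization (-0.34, adjusted p 0.0197) and with array weights (-0.31, adjusted p 0.00996). The other probe sets disagreed: 1428611_at was called lower in both genotypes (-0.59 in wild type, adjusted p 0.000214, and -0.34 in knockout, adjusted p 0.00722), and 1428610_at differed by -0.03 and 0.28 without a call. The call in wild type alone therefore rests on the choice of probe set.

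Atg3, the enzyme that passes ATG8 on to the lipid, was called higher in both genotypes by a narrow margin. Its arrays read 10.01, 9.97 and 10.02 in basal wild type, 10.12, 10.18, 10.44 and 10.31 in TAC wild type, 9.94, 10.08 and 9.99 in basal knockout, and 10.18, 10.19, 10.25 and 10.46 in TAC knockout. The groups were apart in both genotypes. The rise was 0.26 ± 0.10 in wild type (adjusted p 0.046) and 0.27 ± 0.10 in knockout (adjusted p 0.0482). In each genotype the call was lost when any 1 of 11 of the 14 arrays was left out, with adjusted p up to 0.117 in wild type, reached without TAC wild-type array 3, and up to 0.138 in knockout. It was kept in wild type without TAC wild-type array 1 or 2 or TAC knockout array 4, and in knockout without TAC wild-type array 1 or 3 or TAC knockout array 1. Under quantile normalization the rise was 0.089 in wild type (adjusted p 0.428) and 0.18 in knockout (adjusted p 0.117), and neither was called. Atg4b, a protease that trims ATG8, Atg12, which is joined to ATG5, and Atg16l1, which places that complex on the membrane, were not called in either genotype, with differences from -0.19 to 0.07.

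Tfeb was lower in every TAC array. Basal arrays read 8.64, 8.55 and 8.37 in wild type and 8.45, 8.45 and 8.52 in knockout, and TAC arrays 8.06, 7.87, 7.56 and 7.86 in wild type and 7.87, 7.78, 7.65 and 7.72 in knockout. The lowest basal array and the highest TAC array were separated by 8.37 against 8.06. Tfeb fell by 0.68 ± 0.12 in wild type, 1.60-fold, with an adjusted p of 0.000661, and by 0.72 ± 0.12 in knockout, 1.65-fold, with 0.000734.

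The lysosomal genes were mostly not called: 1 of 10 was higher and 1 of 10 lower in each genotype, against 50.7% and 44.5% of all genes called in either direction. Machinery genes were called for 10 of 20 in wild type and 9 of 20 in knockout, which is near those shares, and the difference between the sublists was not tested. The higher gene was Lamp2, a heavily glycosylated membrane protein needed for fusion with autophagosomes. Its basal arrays read 10.99, 11.07 and 10.98 in wild type and 10.97, 11.15 and 11.03 in knockout. TAC arrays read 11.71, 11.86, 12.04 and 11.97 in wild type and 11.87, 12.12, 11.95 and 12.06 in knockout. All 8 TAC arrays were above all 6 basal arrays. Lamp2 rose by 0.88 ± 0.10 in wild type, 1.84-fold, with an adjusted p of 8.61e-05, and by 0.95 ± 0.10 in knockout, 1.93-fold, with 9.07e-05. Each of its 4 kept probe sets was called higher in both genotypes, by 0.76 to 1.16 in wild type and 0.72 to 1.05 in knockout.

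The lower lysosomal gene was Gaa, the acid alpha-glucosidase that breaks down glycogen inside lysosomes. Gaa read 9.89, 10.11 and 9.96 in basal wild type and 9.69, 9.54, 8.62 and 8.84 after TAC, and 10.06, 10.25 and 9.99 in basal knockout and 9.24, 9.24, 9.07 and 8.65 after TAC. The groups were apart, and arrays 3 and 4 of the TAC wild-type group and array 4 of the TAC knockout group were lowest, as they were for Ulk1. Gaa fell by 0.81 ± 0.23 in wild type (1.76-fold, adjusted p 0.011) and by 1.05 ± 0.23 in knockout (2.07-fold, adjusted p 0.0035). Without TAC wild-type array 3 the wild-type drop was 0.63 with an adjusted p of 0.0257. Without TAC knockout array 4 the knockout drop was 0.92 with 0.0117. The second Gaa probe set was called lower in knockout and not in wild type.

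Lamp1, the other abundant membrane glycoprotein, lay between 11.91 and 12.25 over all arrays and was not called, although its knockout difference was called lower under quantile normalization (-0.26, adjusted p 0.0379). The calcium channel Mcoln1 lay between 7.89 and 8.29 and the cholesterol exporter Npc1 between 7.16 and 8.09, both without a call. Of the 6 lysosomal members with an E-box in the promoter window, only Gaa was called after TAC, in both genotypes. Lamp2, without one, was called in both as well. The machinery members with an E-box were each called in wild type, Atg3 and Atg5 higher and Atg7 lower, and of these Atg3 alone in knockout. Of all genes 50.7% were called in wild type and 44.5% in knockout.

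Ctsb, Ctsa and Hexa spread more within the TAC groups than within the basal groups. Ctsb, the cysteine protease, read 12.63, 12.50 and 12.55 in basal wild type and 12.48, 12.57, 13.30 and 12.71 after TAC. In knockout Ctsb read 12.76, 12.69 and 12.67, then 12.99, 13.07, 13.12 and 12.77. TAC wild-type array 3 was far above the other 3 of its group, and the knockout groups were narrowly apart. Ctsb differed by 0.20 ± 0.16 in wild type (adjusted p 0.303) and by 0.28 ± 0.16 in knockout (adjusted p 0.172), and none of its 5 probe sets was called. Without TAC wild-type array 3 the wild-type difference was 0.03, and the knockout difference of 0.28, whose groups are unchanged, had an adjusted p of 0.0351. With array weights the knockout difference was 0.365 with an adjusted p of 0.0043.

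The same array was the highest of the TAC wild-type group for Ctsa (10.80 against 10.30 to 10.49), Ctsl (11.90 against 11.43 to 11.55), Ctsd (12.43 against 12.02 to 12.27) and Hexa (10.42 against 9.49 to 9.69). Its mean of 15 macrophage markers was 10.52, against 8.63 to 9.02 in the rest of its group, and its mean of 8 cardiomyocyte markers 13.70, against 13.98 to 14.17. The part of the macrophage markers in these values was not tested. Without this array the log2 differences in wild type became -0.03 for Ctsl and -0.07 for Hexa, from 0.07 and 0.13 with it. None of Ctsa, Ctsd, Ctsl and Hexa was called in either genotype.

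**Figure D3:**
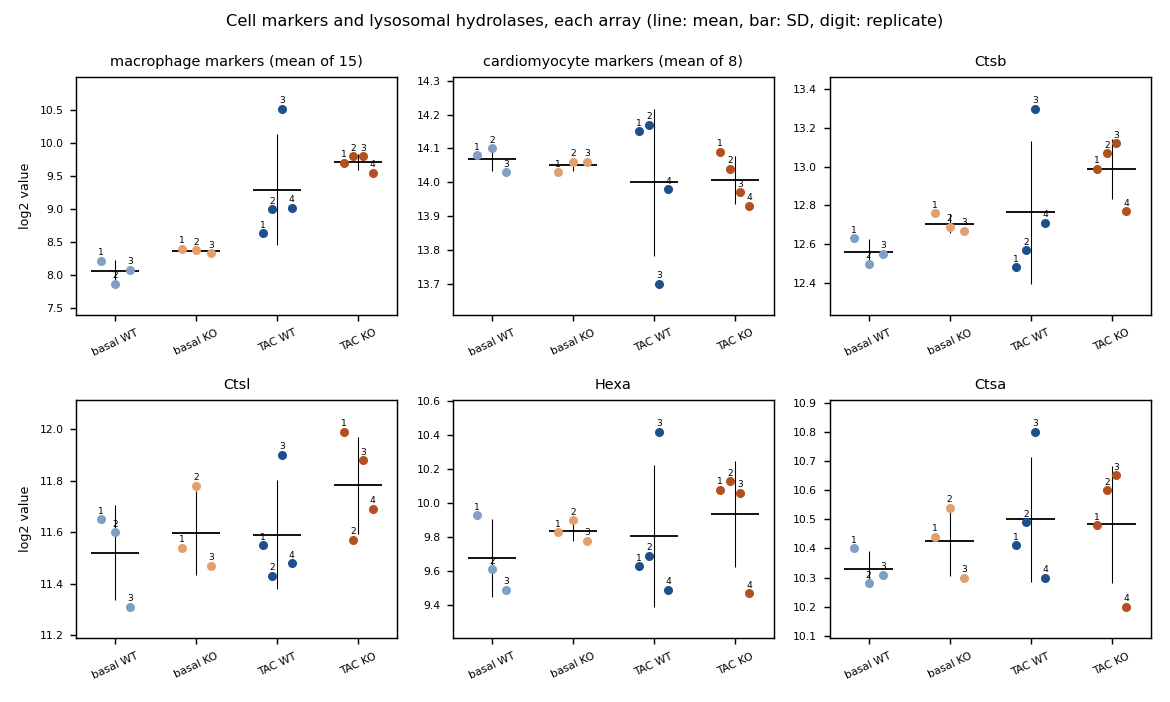
Mean log2 value of 15 macrophage markers and of 8 cardiomyocyte markers, and log2 values of Ctsb, Ctsl, Hexa and Ctsa (vertical axes, a separate range in each panel), in each array of the 4 groups; digits are replicate numbers, lines means and bars SD. TAC wild-type array 3 is the highest point of its group for the macrophage markers (10.52) and for all 4 hydrolases, and the lowest for the cardiomyocyte markers (13.70).

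Genes with more than 1 kept probe set numbered 19. In each genotype 9 of the 19 had probe sets with different calls after TAC, although no gene had 1 probe set called higher and another called lower. Estimates of opposite sign occurred in 6 genes in wild type and 7 in knockout. Counting a gene as called where any of its probe sets was called gave 14 genes in wild type and 15 in knockout. The share of all genes called by that rule was not counted. Of single kept probe sets over the array, 50.5% and 44.2% were called, which is another measure than a share of genes. Lamp2 and Ulk1 were the 2 genes with all of several probe sets called in both genotypes.

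**Figure D4:**
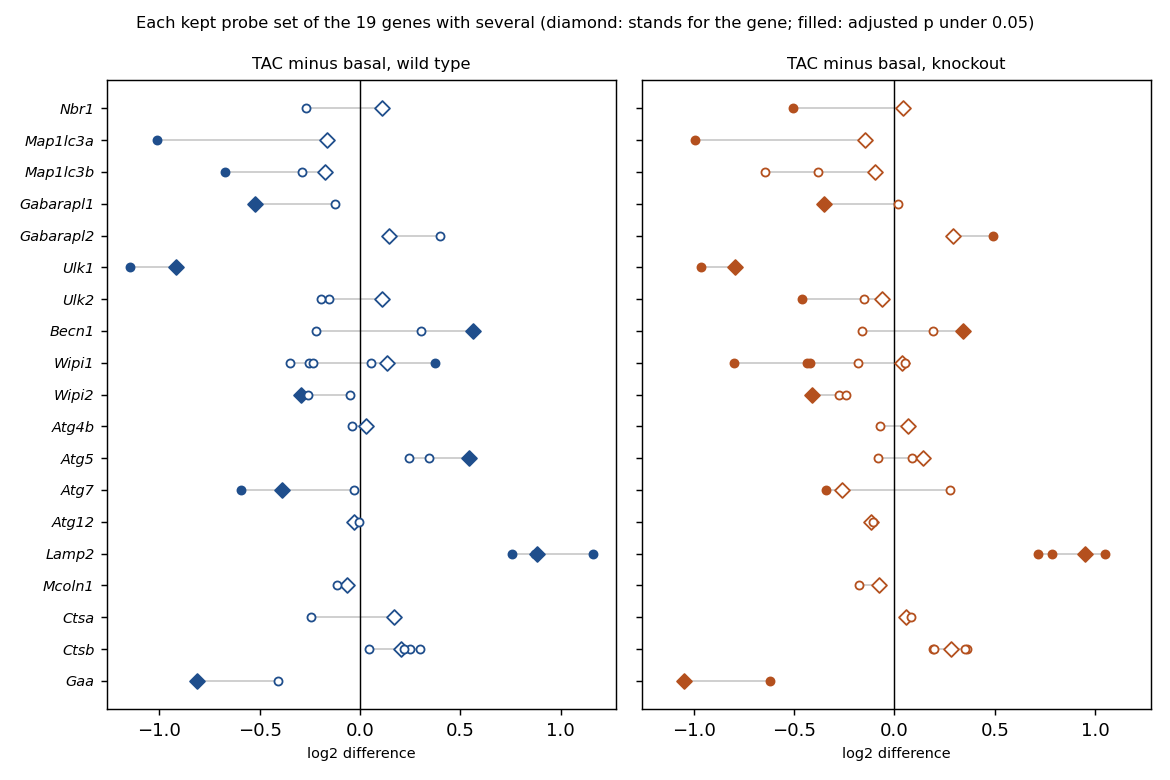
Log2 difference of TAC minus basal (horizontal axis) for each kept probe set of the 19 genes with several, in wild type (left) and knockout (right); a diamond is the probe set that stands for the gene and filled symbols have an adjusted p under 0.05. All 4 Lamp2 symbols are filled and to the right in both panels, while Map1lc3a joins a filled symbol near -1.0 to an open one near zero.

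Between knockout and wild-type hearts no member passed the test, in the basal state or after TAC. In basal hearts 0 of 30 members were called between knockout and wild type by limma, as were 0% of all genes, with adjusted p of 0.821 to 0.999 and log2 differences from -0.34 to 0.16. The deleted gene Hspb8, for which 1456434_x_at stood, was among the genes not called. With every kept probe set tested, 2 of 21229 were called in basal hearts. After TAC 0 of 30 were called, against 0.00816% of all genes (1 gene), with adjusted p of 0.462 to 0.995 and differences from -0.34 to 0.22. The difference between the genotypes' TAC effects was called for 0 of 30 members and 0% of all genes, with adjusted p of 0.612 to 0.998. At an unadjusted p under 0.05 there was 1 member in each of the 3 comparisons, beside 5.77%, 8.14% and 7.76% of all genes. These counts do not show equality: the 95% interval lay within 0.5 log2 units on either side of 0 for 24 members in basal hearts, 26 after TAC and 17 for the difference of effects, and the widest interval, that of Ulk1 in each comparison, was -0.67 to 0.42, -0.48 to 0.47 and -0.60 to 0.84.

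The 2 genes behind the unadjusted counts were Gabarapl1 and Atg5. In basal hearts all 3 knockout arrays of Gabarapl1 (10.87 to 11.07) were below all 3 wild-type arrays (11.13 to 11.59), a difference of -0.34 ± 0.13 with an adjusted p of 0.821. Without basal knockout array 3, the array with another date in its file name, it was -0.30 with 0.918. After TAC all 4 knockout arrays of Atg5 (8.36 to 8.51) were below all 4 wild-type arrays (8.61 to 8.90), a difference of -0.34 ± 0.11 with an adjusted p of 0.462. The other 2 Atg5 probe sets differed by -0.03 each. Groups that did not overlap occurred in 2 of 30 members in basal hearts (Gabarapl1 lower and Ctsb higher in knockout), against 13.6% of all genes, and in 2 of 30 after TAC (Atg5 lower and Gabarap higher), against 3.99% of all genes.

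The genotype comparison after TAC depended on how the arrays were weighted. With weights estimated per array, in which TAC wild-type array 3 received the lowest weight (0.19) and TAC knockout array 3 and TAC wild-type array 2 the highest (4.73 and 3.52, against at most 1.37 elsewhere), 6 members were called between knockout and wild type after TAC, against 23.5% of all genes. Gabarap (0.20), Ctsb (0.48), Ctsl (0.36) and Hexa (0.35) were higher in knockout and Atg9a (-0.32) and Atg5 (-0.36) lower, with adjusted p from 0.00371 to 0.0338. Leaving TAC wild-type array 3 out altogether gave 0 members, against 0.873% of all genes. The mean of 15 macrophage markers was also higher in all 4 TAC knockout arrays (9.55 to 9.80) than in 3 of the 4 TAC wild-type arrays (8.63 to 9.02), and its part in these differences was not tested.

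**Figure D5:**
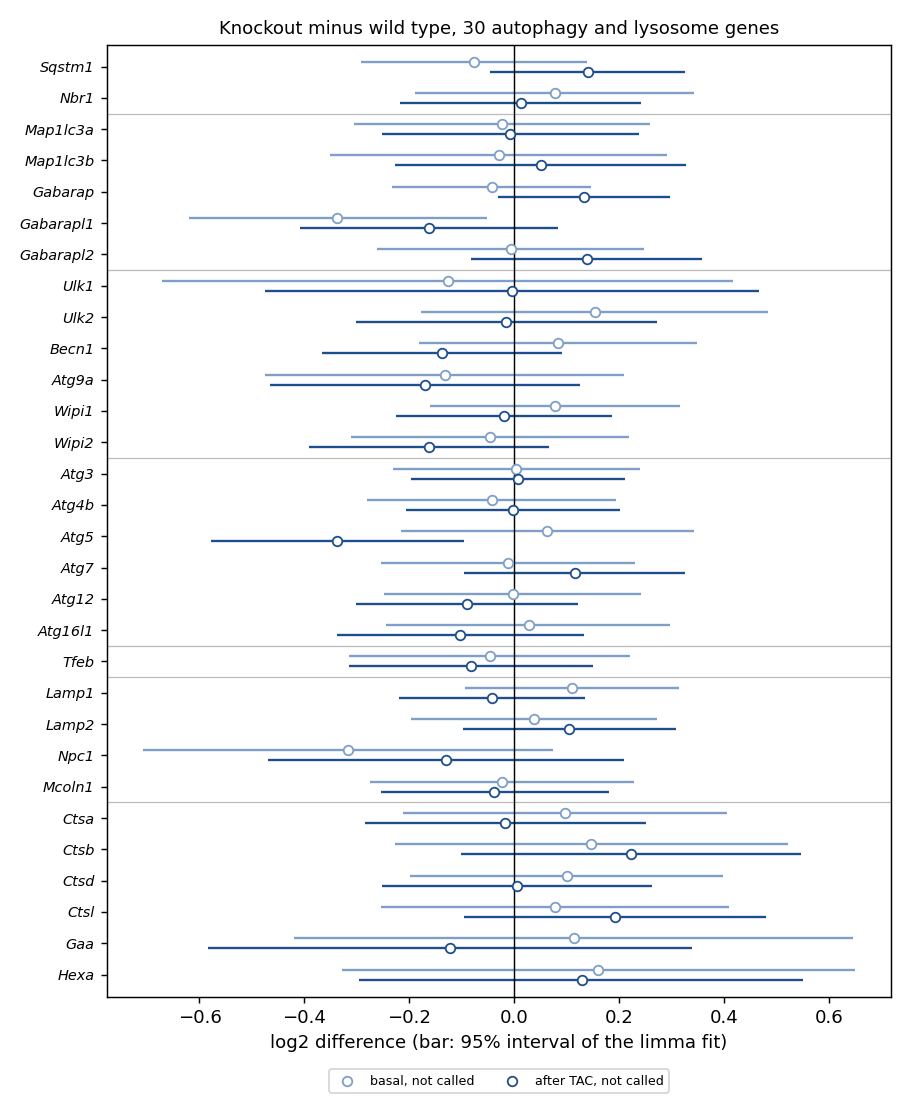
Log2 difference of knockout minus wild type (horizontal axis) for the 30 measured genes in basal hearts (light) and after TAC (dark); points are estimates and bars 95% intervals of the limma fit. All symbols are open, since none had an adjusted p under 0.05, and the intervals of basal Gabarapl1 and of Atg5 after TAC are the ones that miss 0.

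Genes of the same pathway outside the 31 were read from a list of 109, of which 100 were measured. After TAC 29 were higher and 18 lower in wild type, and 29 higher and 23 lower in knockout, or 47% and 52% called against 50.7% and 44.5% of all genes. None was called between genotypes, basal or after TAC, where 1 and 8 of the 100 had an unadjusted p under 0.05.

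Other autophagy genes were called higher for 9 and lower for 7 of 31 in wild type, and higher for 8 and lower for 8 in knockout. That is 51.6% called in each genotype, beside 50.7% of all genes in wild type and 44.5% in knockout. Differences in this list ran from -1.42 to 1.36 in wild type and from -1.26 to 1.28 in knockout. Wdfy3 (ALFY), an adaptor for protein aggregates, rose by 1.36 in wild type and 1.28 in knockout (adjusted p 6.64e-05 and 0.000122). Vmp1 and Tmem41b, lipid-moving proteins of the endoplasmic reticulum that act early in autophagosome formation, rose by 1.02 and 0.78 in wild type and by 1.05 and 0.62 in knockout. Among regulators, 1 of 13 was higher and 4 lower in wild type (38.5% called), and 0 higher and 7 lower in knockout (53.8% called). They included Tfe3, a relative of Tfeb, which fell by 0.56 and 0.40, and the mTORC1 pathway genes Tsc2 (by 0.92 and 1.04) and Rptor (by 0.43 and 0.49).

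Other lysosomal hydrolases and cofactors were called higher for 11 and lower for 3 of 28 in wild type, and higher for 12 and lower for 5 in knockout. The shares called were 50% and 60.7%, beside 50.7% and 44.5% of all genes, and the difference was not tested. Ctss, a cathepsin of antigen-presenting cells, had group means of 8.57 in basal wild type and 11.10 after TAC, and 9.44 and 11.73 in knockout. It rose by 2.53 ± 0.53 (adjusted p 0.00209) and 2.29 ± 0.53 (adjusted p 0.00453). Ctsz rose by 1.61 and 1.43 and Ctsk, known from bone-resorbing cells, by 1.22 and 1.37, whereas Sgsh, a heparan sulfate sulfatase, fell by 0.54 and 0.33. These rises came with the macrophage marker levels given above, whose part in them was not tested.

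The vacuolar ATPase, the proton pump that acidifies lysosomes, had 6 higher and 3 lower of 15 genes in wild type and 7 higher and 2 lower in knockout. This was 60% called in each genotype, beside 50.7% of all genes in wild type and 44.5% in knockout, and the difference was not tested. Atp6v1h (1.14 and 1.28), Atp6ap2 (1.12 and 0.97) and Atp6v1d (0.51 and 0.28) rose in both genotypes. Atp6v0a1, 1 form of the membrane-embedded a subunit, fell by 0.55 and 0.57. Atp6v0a2, another form, fell by 0.57 in knockout and differed by -0.11 in wild type with an adjusted p of 0.411. Of 9 other lysosomal membrane proteins only Laptm4b was called, higher by 0.53 and 0.33. Of 4 genes of chaperone-assisted autophagy, which act with Hspb8, Synpo2 rose by 0.60 and 0.69 and Stub1 (CHIP), a ubiquitin ligase, fell by 0.36 and 0.27. Bag3 (-0.15 and -0.30) and Hspa8 (0.19 and -0.13) were not called in either genotype.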

How the data were processed

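Left ventricular RNA was measured on 1-colour Affymetrix arrays, 14 in number. The deposited table holds log2 expression values of 45101 probe sets, made by the authors with RMA per the submitters' processing notes (the RMA version was not given in the sources used here). That scale was read from the values. Probe sets were named from the platform annotation, with symbols updated through gene numbers and RefSeq accessions: 34958 had 1 symbol, 932 several and 9211 none, and only the first were used. Of these, 21229 exceeded the table's median of 5.75 in at least 3 arrays and were kept. The kept probe set with the highest mean stood for each of 12261 genes. limma 3.58.1 in R 4.3.3 fitted the 4 groups of the array titles together (10 residual and 3.43 prior degrees of freedom), with Benjamini-Hochberg adjustment and a threshold of 0.05; the code was tested on simulated data. The number of arrays limits the precision.

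Members, pathway genes and cell markers were chosen with earlier results of these data known. All members are named; from the pathway list, up to 3 called genes per role and comparison with the smallest p, and the 4 genes of chaperone-assisted autophagy. Optn has no probe set with that single symbol in the annotation used and was not analysed here. Promoter windows came from RefSeq and were searched for 1 motif with and without a flanking base. Alternatives changed the filter, the choice of probe set, the scaling, the arrays fitted, the prior, array weights and the replicate block, or left out 1 array at a time; 1 alternative, without probe sets of the x or s class (probes that may match several transcripts), was chosen after seeing the data.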

Additional observations from a re-analysis of the deposited data

Results flagged for a closer look

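Of 60 groups of 4 arrays examined (30 members in the 2 TAC groups), 2 held an array that stood far from the other 3, and chance flags about 1 in 20 groups. Both were TAC knockout array 4. Lamp1, the lysosomal membrane glycoprotein, read 11.91 there and 12.05 to 12.07 in the other 3 arrays. Hexa, the alpha subunit of beta-hexosaminidase, read 9.47 there and 10.06 to 10.13 in the other 3.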

How the results depend on the processing

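Of the 23 calls after TAC (12 in wild type and 11 in knockout), 13 were kept under every alternative scored for the gene and 10 were lost under at least 1. The alternative that took every probe set was not scored for single genes. Those kept were Sqstm1, Atg9a, Tfeb, Lamp2 and Gaa in both genotypes and Ulk1, Atg5 and Atg7 in wild type. Atg7 did not pass the stricter filter of 7.7 and was not measured under it. The count of called members ranged from 10 to 12 in wild type and from 6 to 12 in knockout when 1 array was left out at a time, and from 10 to 14 and from 8 to 15 under the other alternatives. Leaving out 1 array gave 0 members in each genotype comparison and in the difference of effects. With array weights, 6 members were called between knockout and wild type after TAC (4 higher, 2 lower), against 0 without weights. The cause was not tested. Without x or s probe sets, an alternative chosen after seeing the data, Gabarapl1 differed by 0.016 after TAC in knockout instead of -0.35, because its other probe set then stood for the gene, and the wild-type calls of Gabarapl1 and Becn1 were lost (adjusted p 0.432 and 0.0512).

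The titles do not say whether the replicate numbers pair the samples, and the main fit did not pair them. Deviations of same-numbered arrays correlated at -0.03, 0.07 and -0.01 between the basal groups and at 0.59, -0.06, -0.07 and 0.49 between the TAC groups. For TAC arrays of different numbers the correlations ranged from -0.579 to 0.576. With the replicate number as a block, 10 members were called in wild type after TAC, 8 in knockout, and 0 in basal genotype, TAC genotype and difference comparisons.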
